A study of Mus musculus with 16 samples.

Results

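The comparison was between the HA and the LA mouse line on arrays labelled as saline. Both lines come from Swiss-Webster stock and were bred in opposite directions, HA for high and LA for low swim stress-induced analgesia, that is, how far a swim in cool water dulls pain, and by the study's methods they had reached generation 68. The HA saline group and the LA saline group had 4 arrays each of hippocampal RNA, so the members are 8 of the 16 arrays of the series, chosen by their labelled line and treatment. The other 8 arrays are the HA DMI group and the LA DMI group, 4 each. By the labels their mice were given desipramine (DMI), a tricyclic that blocks noradrenaline reuptake, at 7.5 mg/kg/day. All mice were males. Their age is 15 weeks per the labels, and the paper's text differs on it. All had 21 intraperitoneal injections, by the labels of saline in the 2 groups compared here. By the methods tissue was taken 2 days after the last one. The methods give 12 mice per group and RNA of 3 mice combined on each array, which the labels do not mention, so a p-value here measures the spread between pools. The lines are single selected populations, and a difference between them cannot be told apart from drift in either. No untreated or unselected mice were measured.

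Swim stress calls on opioid and non-opioid pain control, and mice of the HA line are known for stronger opioid-mediated analgesia and for greater sensitivity to stress than LA mice. The hippocampus takes part in this through its dense receptors for glucocorticoids, monoamines and opioid peptides. Its dentate granule cells and pyramidal cells answer activity with immediate early genes, which switch on within minutes of synaptic input and drive later changes at the synapse. Lines kept apart over many generations also come to differ at fixed sequence variants, which can change a transcript or only the way a short array probe binds it.

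The platform was the Illumina MouseRef-8 v2 BeadChip, with 25697 probes and 1 sample on each array. A level is a probe's deposited log2 signal after quantile normalization, and levels are compared between arrays and not between probes. The mean signal of an array before normalization was 269 to 380 in HA saline and 249 to 300 in LA saline, with 13252 to 13701 and 12900 to 13886 probes detected (detection p under 0.05). The HA saline arrays lay closer together, at Pearson's r of 0.993 to 0.996 over all probes, against 0.989 to 0.993 among the LA saline arrays and 0.985 to 0.990 between the lines. The median SD of a detected probe was 0.088 in HA saline and 0.117 in LA saline. Of the LA saline arrays, replicate 2 and replicate 4 stood apart from the rest of their group on the third and on the second principal component, and results that rest on them are given without them as well. The first component, with 33.9% of the variance, had all 8 HA arrays on one side and all 8 LA arrays on the other. For every probe that the study tabulates for DMI, its sign is opposite to that of the labelled arrays. The study also reports qPCR of selected genes on the unpooled RNA, and describes it as matching its own array results. Those qPCR values were not used here, and which arrays held saline was not settled. The arrays are therefore called saline-labelled and DMI-labelled. A line difference is that of the saline-labelled arrays unless the DMI label is named. It is given under the DMI label too for the called probes and for many genes and lists. The study tabulates no HA against LA difference.

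On the saline-labelled arrays 314 of 25697 probes (1.22%) differed between HA and LA at an adjusted p under 0.05 and a log2 difference over 0.5, which is 1.41-fold. The test was limma's, fitted over all 16 arrays, with Benjamini-Hochberg adjustment over all probes, and every adjusted p below is from it. Such probes are named called. They were higher in HA for 143 probes (0.556%) and lower in HA for 171 (0.665%), and stood for 131 and 144 named genes, with 21 called probes that have no gene symbol. With each array centred on its median in place of quantile normalization the split was 403 higher and 45 lower, the median of the detected probes stood 0.13 higher in HA, and 0 of the 314 turned direction. With the adjusted p as the only limit 1627 probes (6.33%) passed, 821 higher and 806 lower. Most called differences were small, with a median size of 0.64, and 35 probes differed by more than 2-fold, 16 higher and 19 lower in HA. For 291 of the 314 the 4 HA and the 4 LA arrays did not overlap, as they did not for 10.4% of all probes. Without LA saline replicate 2 the count was 366, without replicate 4 it was 328 and without both it was 427. With the 4 HA saline arrays averaged into 1 sample, as if they were 1 pool, it was 77.

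The DMI-labelled arrays hold other mice of the same lines, and there 224 probes (0.872%) were called between HA and LA. Of the 314 probes, 298 had the same sign there, 133 were called with the same sign (54 higher and 79 lower) and 0 were called with the opposite sign. At an adjusted p under 0.05 187 passed with the same sign. In all 250 of the 314 had the smaller size on the DMI-labelled arrays, where the median was 0.45. The probes were chosen on the saline-labelled arrays, so a smaller size on the others follows in part from the choice. For 150 of the 314, 63 higher and 87 lower, all 8 HA arrays were separate from all 8 LA arrays, as they were for 527 of all 25697 probes.

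**Figure D1:**
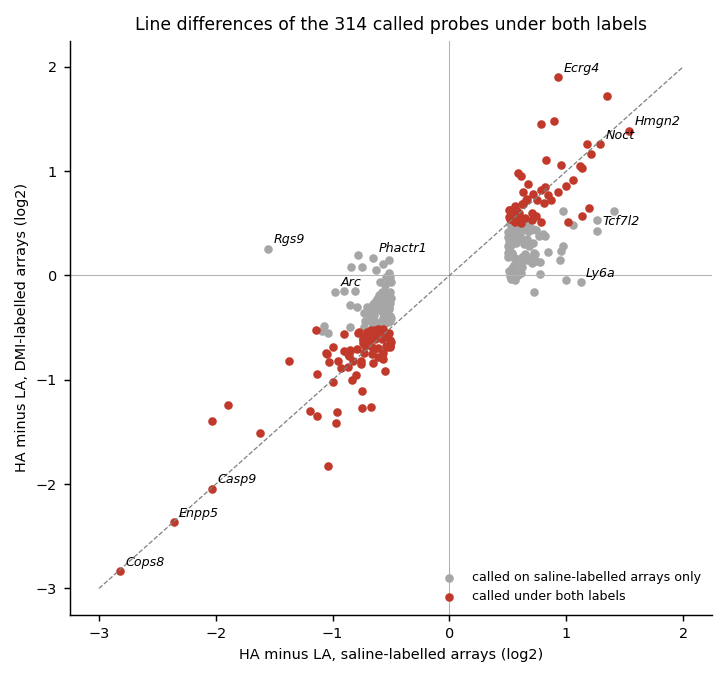
Log2 difference HA minus LA of the 314 called probes on the saline-labelled arrays (horizontal axis) and on the DMI-labelled arrays (vertical axis), with equal values on the dashed line. Cops8 (-2.84 on the vertical axis) and Hmgn2 (1.39) lie near the line, while Rgs9 (0.26), Arc (-0.16), Tcf7l2 (0.43) and Ly6a (-0.07) lie far from it.

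The largest differences were losses in HA of single genes. Cops8, a subunit of the COP9 signalosome, which removes Nedd8 from cullin ubiquitin ligases, had levels of 6.95, 6.97, 6.97 and 7.24 in HA, against 9.78, 9.98, 9.66 and 9.99 in LA. Its difference was -2.82 ± 0.08 (SE, n = 4 and 4 arrays, adjusted p = 9.25e-14), a 7.07-fold lower signal, and on the DMI-labelled arrays it was -2.84. The HA arrays were all far below the LA arrays under either label. Replicate 4 of HA saline was the highest of its group, and the gap below it was 0.914 of the group's range. Cops8 and Enpp5 have 1 probe each on the array.

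Enpp5, a membrane protein of the nucleotide pyrophosphatase and phosphodiesterase family, had levels of 8.56, 8.72, 8.70 and 8.50 in HA, against 10.80, 11.04, 10.93 and 11.15 in LA. The difference was -2.36 ± 0.07 (SE, n = 4 and 4 arrays, adjusted p = 3.57e-13), and -2.37 on the DMI-labelled arrays. Casp9, the caspase that starts the mitochondrial pathway of apoptosis, had levels of 6.59, 6.67, 6.72 and 6.60 in HA, against 8.74, 8.67, 8.65 and 8.63 in LA, a difference of -2.03 ± 0.05 (SE, n = 4 and 4 arrays, adjusted p = 9.25e-14). This probe was detected on 2 of 4 HA arrays and on all LA arrays. The other detected Casp9 probe gave 0.27, adjusted p = 0.0778. Riok1, an atypical kinase of ribosome maturation, was not detected on any HA saline array by its called probe, and its levels were 6.52, 6.51, 6.48 and 6.40 in HA, against 8.23, 8.22, 8.09 and 7.86 in LA. It was at least 2.71-fold lower in HA (adjusted p = 1.23e-09), the bound set against the lowest detected signal of each array. A second Riok1 probe, detected on all 8 arrays, gave -0.03, adjusted p = 0.901.

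Rusc2, an adaptor protein that binds Rab1, fell on both of its detected probes. The brighter one had levels of 7.59, 7.67, 7.70 and 7.86 in HA, against 9.47, 9.96, 9.65 and 9.89 in LA, a difference of -2.04 ± 0.20 (SE, n = 4 and 4 arrays, adjusted p = 8.41e-06), and the other a difference of -1.90, adjusted p = 1.4e-05. Under the DMI label the HA arrays split, with 7.76, 8.64, 8.68 and 7.50, against 9.69, 9.53, 9.35 and 9.57 in LA. Replicates 2 and 3 of HA DMI were thus nearer to LA than replicates 1 and 4. The same replicates were the higher HA DMI arrays for Tctn3, a tectonic protein of the ciliary transition zone, with 7.27, 7.71, 7.81 and 7.24, and for Cnnm1, a cyclin M family protein, with 7.62, 8.07, 8.02 and 7.43. On the saline-labelled arrays Tctn3 differed by -1.37, adjusted p = 1.98e-07, on a second probe, detected on 1 of 4 HA arrays, by -0.54, adjusted p = 1.4e-05, and Cnnm1 by -1.07, adjusted p = 5.02e-05, with no overlap between the lines. The other detected Cnnm1 probe had the same sign and did not pass.

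Further losses were those of D11Wsu47e (-1.19, adjusted p = 1.27e-08), Fcer1g, the common chain of Fc receptors found in microglia (-1.14, adjusted p = 1.05e-06), Ptpra, a receptor tyrosine phosphatase (-1.13, adjusted p = 0.000261), Hmgxb3, an HMG-box protein (-1.13, adjusted p = 1.58e-05), and Sptbn1, a spectrin of the membrane skeleton (-1.05, adjusted p = 1.92e-06). Sptbn1 has 3 other detected probes, at 0.10, -0.20 and -0.25, of which the last passed (adjusted p = 0.0223). Of the 15 probes with the largest named falls 2 were fragile. Golga2, a Golgi matrix protein, differed by -1.09, adjusted p = 0.0374 with levels of 7.11, 7.80, 7.12 and 8.06 in HA, against 8.92, 8.67, 8.81 and 8.06 in LA, so that replicate 4 of HA and of LA were level, while another probe of it rose (0.33, adjusted p = 0.0156). Its call was lost on leaving out any of 6 of the 8 arrays, with the size between -0.96 and -1.19 among those. Rgs9, which speeds the shut-off of G protein signals, above all in striatum, had levels of 8.14, 7.99, 8.15 and 8.06 in HA, against 10.12, 10.77, 7.90 and 9.75 in LA, a difference of -1.55, adjusted p = 0.041. LA saline replicates 1, 2 and 4 were high and replicate 3 was at the HA level. Its call was lost on leaving out any array but LA saline replicate 3, and without replicate 2 the difference was -1.17 (adjusted p = 0.112).

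The largest gain in HA was that of Hmgn2, a nucleosome-binding protein that loosens chromatin, with levels of 12.15, 11.95, 11.92 and 11.83 in HA, against 10.52, 10.64, 10.25 and 10.30 in LA. Its difference was 1.53 ± 0.11 (SE, n = 4 and 4 arrays, adjusted p = 1.98e-07), and 1.39 on the DMI-labelled arrays, where the lines did not overlap either. Noct, a clock-controlled phosphatase that acts on NADP(H), had levels of 9.59, 9.40, 9.38 and 9.28 in HA, against 8.15, 8.19, 7.999 and 8.15 in LA, a difference of 1.29 ± 0.06 (SE, n = 4 and 4 arrays, adjusted p = 4.51e-10). A second, detected Noct probe gave -0.06, adjusted p = 0.865. Psmd12, a subunit of the proteasome's regulatory particle, differed by 1.21, adjusted p = 1.74e-07 on one probe and by 0.15, adjusted p = 0.541 on the other. For both genes 1 probe separated the lines fully and the other did not.

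Tmem106b, a lysosomal membrane protein, had levels of 8.80, 8.73, 8.75 and 8.67 in HA, against 7.40, 7.40, 7.10 and 7.66 in LA, a difference of 1.34 ± 0.16 (SE, n = 4 and 4 arrays, adjusted p = 5.1e-05), and was 1.72 on the DMI-labelled arrays. Sema5a, a semaphorin that guides axons and limits synapse formation by dentate granule cells in mice, rose on both probes, with levels of 10.34, 10.23, 10.65 and 10.69 in HA, against 9.50, 8.98, 9.48 and 9.40 in LA on the brighter one (1.14, adjusted p = 4.96e-05, and 1.41, adjusted p = 9.88e-05 on the other). LA saline replicate 2 was the lowest array on both. Pdrg1, a small prefoldin-like protein, was detected on all HA and on 0 of 4 LA arrays, at least 2.01-fold higher in HA (adjusted p = 0.000235). Ercc5, the endonuclease of nucleotide excision repair, rose on 1 probe that was detected on 1 of 4 LA arrays (1.06, adjusted p = 1.23e-09, with 7.63, 7.60, 7.65 and 7.58 in HA, against 6.44, 6.72, 6.54 and 6.54 in LA) and fell on the other (-0.33, adjusted p = 0.00162), with the same signs on the DMI-labelled arrays (0.92 and -0.34). Fgf1, a fibroblast growth factor, rose by 1.01, adjusted p = 3.89e-05. The other genes among the 15 probes with the largest named rises, Tcf7l2, Calb2, Zic1, Ptgds, Wfdc2 and Ly6a, are on cell type lists and are described further on.

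**Figure D2:**
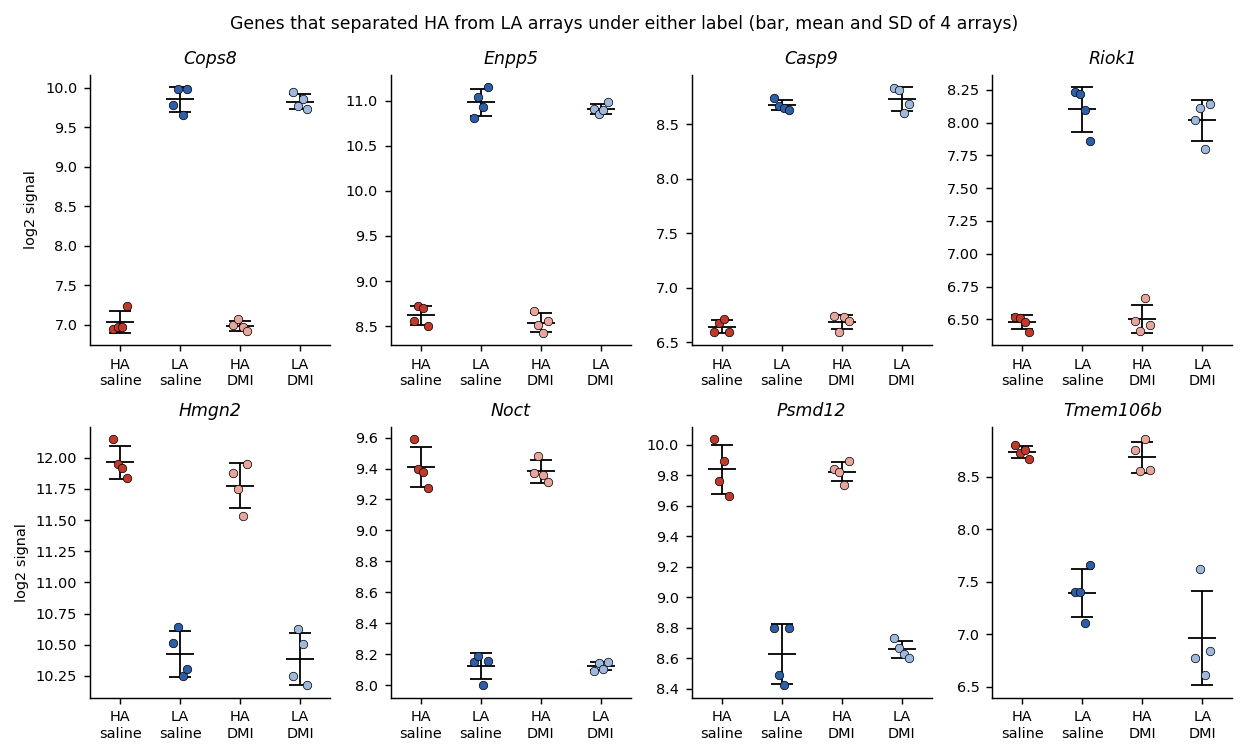
Log2 signal of 8 leading genes on each of the 16 arrays (points), by line and label, with the mean and SD of 4 arrays (bars). In each gene the 4 HA saline arrays lie apart from the 4 LA saline arrays, and the same holds for HA and LA under the DMI label.

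Probes of 1 gene often disagreed. Of the 275 called genes 158 have 1 probe on the array and 97 have 2 or more detected probes, and in 10 of these 97 every detected probe was called. The 120 detected probes of called genes that were not called themselves had the same sign as the called one in 91 cases, passed an adjusted p under 0.05 with that sign in 33 and with the opposite sign in 4. The part of variants under a probe, or of splice forms, was not tested, since probe sequences were not used here.

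Of 29 measured immediate early genes 9 passed an adjusted p under 0.05 as lower (against 3.63% of all 16597 genes) and 0 as higher (3.45% of all genes), with a list median difference of -0.11 against -0.0017 over all genes. The 9 were Arc, Egr1, Egr2, Egr4, Homer1, Klf2, Npas4, Nr4a3 and Vgf. Fos (-0.47, adjusted p = 0.0777) and Junb (-0.37, adjusted p = 0.058) did not pass. Bdnf was at 0.04, adjusted p = 0.883. In all 20 did not pass, and 10 of the 29 had a difference above 0.

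Arc, whose protein carries AMPA receptors out of the synapse, had levels of 8.32, 8.47, 8.40 and 8.63 in HA, against 10.12, 9.03, 9.52 and 9.06 in LA, a difference of -0.98 ± 0.18 (SE, n = 4 and 4 arrays, adjusted p = 0.00327). All 4 HA arrays were below all LA arrays. Egr1, a zinc-finger transcription factor of the early response, had levels of 11.73, 11.53, 11.61 and 11.68 in HA, against 12.55, 11.92, 12.29 and 12.36 in LA, a difference of -0.64 ± 0.12 (SE, n = 4 and 4 arrays, adjusted p = 0.00292). Homer1, whose short early form uncouples metabotropic glutamate receptors from their scaffold, had levels of 9.49, 9.36, 9.37 and 9.34 in HA, against 10.03, 9.72, 9.86 and 10.11 in LA on the called probe (-0.54, adjusted p = 0.00144), a value that fell to -0.48 without LA saline replicate 4, and its other 2 probes detected on all 8 arrays gave -0.26 and -0.14. Npas4, a factor induced by calcium entry that shapes inhibitory synapses, averaged 6.79 ± 0.10 in HA and 7.25 ± 0.13 in LA (SD, n = 4 each), Egr2 6.89 ± 0.04 in HA and 7.26 ± 0.06 in LA, Egr4 9.37 ± 0.15 in HA and 9.80 ± 0.25 in LA, Nr4a3 6.79 ± 0.07 in HA and 6.99 ± 0.07 in LA and Klf2 7.30 ± 0.15 in HA and 7.76 ± 0.20 in LA. Vgf, a secreted neuropeptide precursor, differed by -0.58, adjusted p = 0.0489, with LA saline replicate 4 at the HA level, and its call was kept on leaving out that array and lost without any other.

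On the DMI-labelled arrays 0 of the 29 genes passed in either direction (2.17% of all genes were higher and 3.45% lower there), and Arc differed by -0.16. The mean of the list on each array, relative to its mean over 16 arrays, was -0.15 to -0.11 in HA saline and -0.01 to 0.14 in LA saline, against 0.01 to 0.04 in HA DMI and 0.01 to 0.11 in LA DMI. The 4 HA saline arrays were thus the lowest of all 16. A difference between the labels was not shown for any of the 9 genes, as the test of the difference gave adjusted p of 0.20 or more. The count was 6 to 9 on leaving out 1 saline-labelled array, 2 under median centring and 0 with the HA saline arrays averaged.

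**Figure D3:**
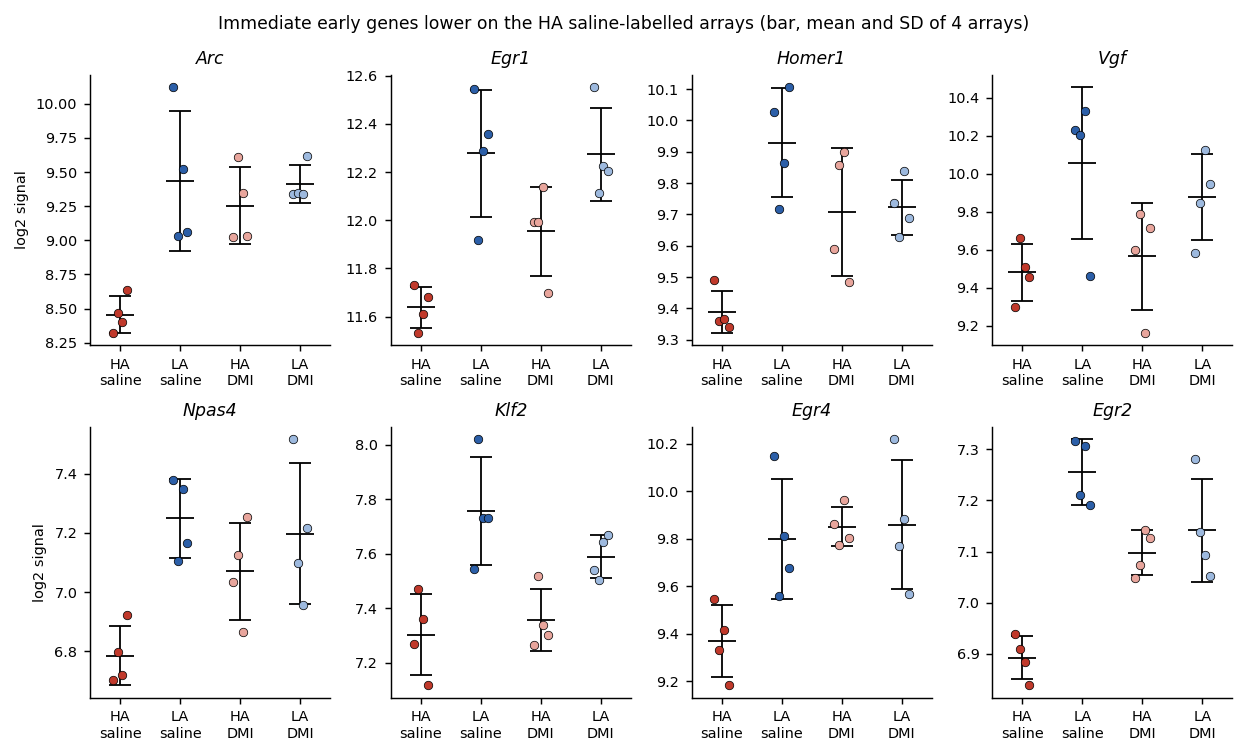
Log2 signal of 8 immediate early genes on each array (points), by line and label, with the mean and SD of 4 arrays (bars). For Arc, Egr1, Homer1, Npas4, Klf2, Egr4 and Egr2 the HA saline arrays lie below every LA saline array, and for Vgf LA saline replicate 4 overlaps them.

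The promoters of lower genes are shown because 9 members of the list fell. Activity reaches many of them through the cAMP response element, TGACGTCA, or its shorter core TGACG, bound by CREB. Of the 9 lower genes 6 matched an entry in the RefSeq promoter table (GRCm38.p6, 250 bases before to 50 after the start). Of those, 5 hold a core on either strand, against 20.8% of 32851 promoters, and 4 hold 2 or more, against 5.01%. Among the 15 matched list members that did not pass, 9 hold one too and 5 hold 2 or more. The full element, which contains the core on both strands, is in 0 of the 6, in 2 of the 15 and in 1.79% of all. The CArG box, bound by serum response factor, is in 0 of the 6 and in 1.63% of all. Arc, Egr1 and Vgf are the lower genes without a matched entry, so none of these motifs was looked for in them. The 4 windows with 2 or more cores follow, 5′ to 3′ on the gene's strand, with each core, as TGACG or its reverse complement CGTCA, in capitals.
Homer1 (chr13:93303507-93303806, plus strand): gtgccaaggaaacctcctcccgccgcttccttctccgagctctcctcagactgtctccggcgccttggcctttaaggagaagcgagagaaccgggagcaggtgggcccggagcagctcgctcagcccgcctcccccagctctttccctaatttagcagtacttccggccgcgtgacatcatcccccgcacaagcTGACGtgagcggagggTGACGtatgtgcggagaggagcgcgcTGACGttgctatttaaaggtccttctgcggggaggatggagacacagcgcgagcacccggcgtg
Npas4 (chr19:4989922-4990221, minus strand): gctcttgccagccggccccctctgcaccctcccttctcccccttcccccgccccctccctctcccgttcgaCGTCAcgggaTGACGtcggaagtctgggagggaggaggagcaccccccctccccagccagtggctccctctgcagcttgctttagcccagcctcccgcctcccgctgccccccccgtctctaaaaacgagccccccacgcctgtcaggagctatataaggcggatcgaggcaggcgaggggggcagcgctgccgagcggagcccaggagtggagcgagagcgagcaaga
Nr4a3 (chr4:48045055-48045354, plus strand): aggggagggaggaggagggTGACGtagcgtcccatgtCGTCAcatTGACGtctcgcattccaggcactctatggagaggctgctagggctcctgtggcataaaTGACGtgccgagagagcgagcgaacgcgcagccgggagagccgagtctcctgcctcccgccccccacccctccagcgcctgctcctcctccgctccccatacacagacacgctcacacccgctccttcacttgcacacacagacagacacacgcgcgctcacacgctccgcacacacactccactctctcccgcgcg
Egr4 (chr6:85513540-85513839, minus strand): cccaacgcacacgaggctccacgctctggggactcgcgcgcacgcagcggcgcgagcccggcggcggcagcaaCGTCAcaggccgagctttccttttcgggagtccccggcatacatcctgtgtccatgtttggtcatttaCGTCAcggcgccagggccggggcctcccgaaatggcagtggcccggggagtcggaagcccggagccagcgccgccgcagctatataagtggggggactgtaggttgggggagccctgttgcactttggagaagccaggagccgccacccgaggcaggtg

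Homer1 has 3 cores, Nr4a3 has 4, and Npas4 and Egr4 have 2 each, beside line differences of -0.54, -0.21, -0.46 and -0.43. A match is a run of letters, and binding was not measured.

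On the saline-labelled arrays calcium and glutamate genes were lower in HA more often than higher with quantile normalization. Under median centring 7 and 1 of them were higher and 0 lower. Among 50 measured genes of calcium signalling 9 were lower and 4 higher in HA, against 3.63% and 3.45% of all genes. Under the DMI label 5 were lower and 1 higher, against 3.45% and 2.17% of all genes. Pde1a, a calmodulin-dependent phosphodiesterase, had levels of 8.18, 8.49, 8.23 and 8.50 in HA, against 9.46, 9.09, 9.30 and 9.14 in LA, a difference of -0.90 ± 0.09 (SE, n = 4 and 4 arrays, adjusted p = 7.81e-06), and -0.78, adjusted p = 2.2e-05 on its brighter probe. Slc8a2, a sodium-calcium exchanger, was called on a dimmer probe (-0.78, adjusted p = 7.06e-05) and not on its brightest (-0.14, adjusted p = 0.684). Pde1b, a striatum-rich relative of Pde1a, fell too (-0.71, adjusted p = 0.00563). Of the channels that release or admit calcium, Ryr1 (-0.37, adjusted p = 0.00269), Ryr3 (-0.44, adjusted p = 0.0138), Itpr2 (-0.29, adjusted p = 0.00996), Cacna1a (-0.38, adjusted p = 0.0108) and Cacna1h (-0.46, adjusted p = 0.0125) were lower. Prkaca, the catalytic subunit of protein kinase A (0.54, adjusted p = 0.00463), and Calm2, a calmodulin gene (0.52, adjusted p = 0.0114), were higher. Their lines did not overlap, and a second Prkaca probe was at 0.16, adjusted p = 0.598. Each lost its call without some single arrays, with smallest sizes of 0.42 for Prkaca and 0.44 for Calm2.

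Of 32 glutamate receptor and transporter genes 5 were lower and 1 was higher, against 3.63% and 3.45% of all genes. Besides Homer1 the lower ones were the AMPA receptor subunit Gria3 (-0.46, adjusted p = 0.00139), the glial glutamate transporter Slc1a2 (-0.35, adjusted p = 0.00208), the scaffold Dlg2 (-0.26, adjusted p = 0.0124) and the kainate receptor subunit Grik5 (-0.21, adjusted p = 0.033). Slc6a9, the glycine transporter GlyT1, was higher (0.56, adjusted p = 0.00947). On the DMI-labelled arrays 1 of the 32 was lower and 1 higher, where 3.45% and 2.17% of all genes were. The list median was -0.07 under the saline label and 0.01 under the DMI label. Among 45 potassium channel genes 7 were lower and 5 higher, with no stable balance: 2 were lower and 4 higher without HA saline replicate 1, 3 lower and 4 higher without HA saline replicate 2, 2 lower and 2 higher without LA saline replicate 1, and 0 lower and 5 higher under median centring. Omitting HA saline replicate 3, LA saline replicate 2 or LA saline replicate 3 left 4 lower and 2 or 3 higher. On the DMI-labelled arrays 3 of the 45 were lower and 0 higher. Kcnj9, the GIRK3 subunit of channels that opioid and other inhibitory receptors open, had levels of 7.68, 7.59, 7.57 and 7.44 in HA, against 6.69, 6.83, 7.03 and 6.89 in LA, a difference of 0.71 ± 0.09 (SE, n = 4 and 4 arrays, adjusted p = 0.0001), and was 0.12 on the DMI-labelled arrays. Every HA array was above every LA array. Kcnh1, an ether-a-go-go channel, differed by -0.51, adjusted p = 0.0168 with overlapping lines, and its call was lost on leaving out any of 5 arrays.

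The opioid list, chosen for the trait the lines were bred for, showed losses that it shares with striatal markers. Of 14 measured genes 3 were lower and 0 higher: Pdyn, the precursor of dynorphins (-0.66, adjusted p = 0.0206), Rgs9 and Arrb1, which arrests opioid and other receptors (-0.29, adjusted p = 0.0498). Pdyn had levels of 8.51, 8.33, 8.50 and 8.45 in HA, against 9.13, 9.64, 8.81 and 8.83 in LA, with LA saline replicate 2 highest, and Pdyn and Rgs9 are also on the striatal list. The other detected Pdyn probe was lower in HA too but did not pass. Without HA saline replicate 2 or LA saline replicate 2 the Pdyn call was lost, with a smallest size of -0.48 and a highest adjusted p of 0.0643 over the omissions. On the DMI-labelled arrays 0 of the 14 passed. The count was 0 to 3 on leaving out 1 saline-labelled array, and 3.63% of all genes were lower. Of the receptor genes, Oprd1 (-0.04, adjusted p = 0.731), Oprk1 (-0.12, adjusted p = 0.234) and Oprl1 (-0.12, adjusted p = 0.402) did not pass. The list mean was -0.12 to -0.02 in HA saline and -0.04 to 0.30 in LA saline.

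Among receptors and enzymes of noradrenaline and other monoamines 2 of 30 were lower, Adra2c, an adrenoceptor that restrains noradrenaline release (-0.46, adjusted p = 0.019), and Htr1d (-0.29, adjusted p = 0.0414), and 0 were higher. The lower count was 0 without HA saline replicate 1, HA saline replicate 2, LA saline replicate 1 or LA saline replicate 2, 1 without HA saline replicate 3, 4 without LA saline replicate 3 and 0 under median centring. Drd1 was at -0.83, adjusted p = 0.0682. In the stress hormone list 2 of 27 were lower, Cdkn1a (-0.29, adjusted p = 0.0107) and Hsd11b1, which regenerates active glucocorticoid (-0.26, adjusted p = 0.025), and Tsc22d3, a glucocorticoid-induced gene, was higher (0.35, adjusted p = 0.0408). Among 11 endocannabinoid genes the receptor Cnr1 was lower (-0.28, adjusted p = 0.0337) and Daglb, which makes 2-arachidonoylglycerol, higher (0.26, adjusted p = 0.0479). Of 36 neuropeptide genes Cck was lower (-0.41, adjusted p = 0.00873) and Adcyap1 (0.37, adjusted p = 0.0187) and Cartpt (0.25, adjusted p = 0.0343) were higher. Of 24 GABA genes the transporter Slc6a11 alone passed, as higher (0.62, adjusted p = 0.00256). The endocannabinoid, stress hormone and neuropeptide counts also moved with single arrays: leaving out 1 gave 0 to 1 lower and 0 to 1 higher, 1 to 3 lower and 0 to 1 higher, and 1 lower and 0 to 2 higher. All of these counts stand against 3.45% of all genes higher and 3.63% lower.

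Klf5, Ntsr2 and Gabrd were not called. The study's text describes Klf5, a neurotensin receptor and a GABA receptor as upregulated in HA mice. It describes genes of calcium signalling as upregulated in LA mice. Both statements come from earlier work on mice under control conditions, which differ from the repeatedly injected mice here. The calcium list above had 9 genes lower and 4 higher in HA, but 0 lower and 7 higher under median centring. Klf5 leaned the other way here, lower in HA under both labels, and passed the adjusted p only under the DMI label. Klf5, a zinc-finger transcription factor, averaged 7.48 ± 0.05 in HA and 7.61 ± 0.04 in LA (SD, n = 4 each), a difference of -0.13, adjusted p = 0.347, and -0.47 on the DMI-labelled arrays (adjusted p = 0.00044). Ntsr2, a neurotensin receptor of astrocytes, averaged 10.75 ± 0.13 in HA and 10.58 ± 0.17 in LA, a difference of 0.16, adjusted p = 0.293. Gabrd, the delta subunit of extrasynaptic GABA-A receptors, has 2 probes, of which one passed the adjusted p as higher (0.33, adjusted p = 0.0474) and the other was at 0.12, adjusted p = 0.674.

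Histone genes were a group noticed after the values were seen, so their count is a description. Of 37 detected probes of 35 histone genes 10 passed as lower and 1 as higher, against 806 lower and 821 higher of all 25697 probes, detected or not. On the DMI-labelled arrays 3 passed as lower, H2bc14, H2aj and H2bc6, and 1 as higher. The median of the 37 was -0.12 under the saline label and -0.04 under the DMI label. In all 6 genes were called, all lower: H2bc14, H2aj, H2bc6, H2ac24, H2ac12 and H2ac7, of which 5 lie in the clusters on chromosome 13. Of all probes, detected or not, 0.665% were called lower, and of the detected probes 2.34% were called in either direction. H2bc14 had levels of 7.04, 7.11, 7.15 and 7.10 in HA, against 8.15, 8.07, 8.24 and 8.06 in LA, a difference of -1.03 ± 0.08 (SE, n = 4 and 4 arrays, adjusted p = 5.54e-07), and -0.83 on the DMI-labelled arrays. H2aj was not detected on any HA saline array and was at least 1.51-fold lower in HA (adjusted p = 5.71e-07). H2ac24 had levels of 8.56, 9.33, 8.64 and 9.49 in HA, against 9.95, 9.78, 9.98 and 9.49 in LA, so the lines overlapped. Its difference was -0.79, adjusted p = 0.0126, and -0.30, adjusted p = 0.466 on the DMI-labelled arrays. H2ac7 differed by -0.52, adjusted p = 0.0111 here and by 0.02 on the DMI-labelled arrays, and its call was lost on leaving out any of 5 arrays, with a smallest size of -0.43. Copies of these genes are nearly identical, so a probe may read several of them.

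Cops8 stood alone in its complex. Of the 9 measured COP9 subunits Cops5 passed as higher by a small amount (0.29, adjusted p = 0.0253) and the other 7 did not pass. Of 21 clock genes Dbp, a clock output factor, rose (0.54, adjusted p = 0.000708), with levels of 11.21, 11.10, 11.04 and 10.90 in HA, against 10.48, 10.73, 10.48 and 10.38 in LA, and Per2, of the clock's repressor arm, fell (-0.36, adjusted p = 0.00071), also on the DMI-labelled arrays (-0.45). Rora was higher as well (0.77, adjusted p = 0.0213, with a highest adjusted p of 0.0669 over the omissions) and is on the thalamic list too. On the DMI-labelled arrays 0 of the 21 clock genes passed as higher and 1 as lower, where 2.17% and 3.45% of all genes did. The rises of Dbp and Rora thus did not pass there. Lists of metabolism and defence held few differences of size. The saline-labelled list counts of this paragraph stand against 3.45% of all genes higher and 3.63% lower. Those shares include undetected genes, while 68 of the 72 respiratory chain genes and 33 of the 34 glutathione list genes were detected. Among 72 respiratory chain genes 6 were higher and 2 lower. Leaving out 1 array gave 3 to 6 higher and 2 to 4 lower, with 3 higher without HA saline replicate 1 or LA saline replicate 4, and 3 higher and 4 lower without HA saline replicate 2. Ndufb10, a subunit of complex I, had levels of 9.01, 9.24, 8.79 and 9.19 in HA, against 8.32, 8.27, 7.92 and 7.90 in LA, a difference of 0.95 ± 0.12 (SE, n = 4 and 4 arrays, adjusted p = 8.57e-05), and Sdhc, which anchors complex II, had 10.90, 11.05, 10.86 and 11.11 in HA, against 10.32, 10.39, 10.33 and 9.74 in LA, a difference of 0.78 ± 0.12 (SE, n = 4 and 4 arrays, adjusted p = 0.000445). Both kept their size on the DMI-labelled arrays (1.06 and 0.82). Of 34 genes of glutathione, glyoxalase and xenobiotic enzymes 6 were higher and 0 lower, at 0.36 to 0.43 each: Ephx1, Gstm6, Gstt3, Cbr1, Gpx3 and Gstm5. Mgst1, a membrane glutathione transferase, was called on a dimmer probe (0.67, adjusted p = 0.000195), while its brightest was at 0.13, adjusted p = 0.496. Of 26 genes of MHC class I and antigen processing Tap2 alone passed (0.27, adjusted p = 0.0231).

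Markers of hippocampal cells were set beside the tissue label. Their detection alone does not show the tissue, since 34 of 35 choroid plexus and 19 of 21 neocortical layer genes were detected as well. Of 21 measured markers of hippocampal principal cells 17 were detected, and 1 was higher and 1 lower in HA. Without LA saline replicate 2, 3 were lower, without LA saline replicate 4, 2 were higher, and without both, 5 were lower. C1ql2, a synaptic organiser of granule cell mossy fibres, had levels of 10.33, 10.27, 10.38 and 10.25 in HA, against 11.01, 10.98, 11.22 and 11.01 in LA, a difference of -0.75 ± 0.08 (SE, n = 4 and 4 arrays, adjusted p = 1.4e-05), and -1.10 on the DMI-labelled arrays. Bok, a Bcl-2 relative on this list, rose (0.74, adjusted p = 1.16e-05), while its other detected probe had the same sign and did not pass. The list mean was -0.12 to -0.04 in HA saline and -0.23 to 0.06 in LA saline, so the lines overlapped. Of 20 interneuron markers Reln (-0.44, adjusted p = 0.0021) and Cck were lower and Calb2 was higher. In the list of progenitors and immature neurons 3 of 20 were higher, Hmgn2, Calb2 and Dpysl3, a growth cone protein (0.59, adjusted p = 0.00273). The counts of these lists stand against 3.45% of all genes higher and 3.63% lower.

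Glial markers moved unevenly. Among 17 astrocyte genes 4 were higher, Sox9 (0.67, adjusted p = 0.000138), Acsbg1 (0.40, adjusted p = 0.000676), Slc6a11 and Slc6a9, and 2 were lower, Slc1a2 and Glul, which makes glutamine (-0.48, adjusted p = 0.00266). On the DMI-labelled arrays 1 of the 17 was higher and 2 were lower. The astrocyte median was 0.14 under the saline label and -0.02 under the DMI label. Among 25 genes of oligodendrocytes and myelin 5 were higher and 0 lower: Olig1 (0.51, adjusted p = 0.000311), Plekhb1 (0.56, adjusted p = 0.00067), Trf (0.50, adjusted p = 0.00791), Mog (0.37, adjusted p = 0.0222) and Bcas1 (0.31, adjusted p = 0.0491). Mbp, the myelin basic protein, was called on a dimmer probe (0.76, adjusted p = 0.00127) and was at 0.17, adjusted p = 0.147 on its brightest. On the DMI-labelled arrays 2 of the 25 were higher and 1 lower, with Plekhb1 at -0.04 and Bcas1 at -0.23. The count under the saline label was 3 to 6 on leaving out 1 array, with 6 without LA saline replicate 2. It was 0 with the HA saline arrays averaged. Among 17 microglial genes Fcer1g, P2ry12, the receptor by which microglia sense nucleotides (-0.68, adjusted p = 0.00266), and Ly86 (-0.39, adjusted p = 0.00481) were lower, while Trem2 (0.48, adjusted p = 0.000316) and C1qc (0.47, adjusted p = 0.00295) were higher. All 5 kept their sign on the DMI-labelled arrays, at -0.53, -0.61, -0.36, 0.36 and 0.53. In the endothelial list 3 of 19 were higher and 2 lower, with Slco1a4, a transporter at the blood-brain barrier, at -0.53, adjusted p = 0.00061. On the DMI-labelled arrays 0 of the 19 were higher and 6 lower. Of 14 genes of smooth muscle and pericytes Rgs5 alone passed (0.64, adjusted p = 0.0101). Of 11 blood markers 0 passed, with 4 detected. Beside these counts, 3.45% of all genes were higher and 3.63% lower under the saline label, and 2.17% and 3.45% under the DMI label.

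Markers of choroid plexus, thalamus and habenula, and striatum held the largest shares of genes past the test among the lists. Of all genes 3.45% were higher and 3.63% lower. The amount of neighbouring tissue in a sample, the number of cells of a type and the RNA per cell cannot be told apart here. Of 35 measured genes of choroid plexus epithelium, which lines the ventricle beside the hippocampus, 18 were higher and 0 lower in HA, with a median of 0.40, and under the DMI label 26 were higher, with a median of 0.52. Wfdc2 had levels of 8.54, 8.79, 8.47 and 8.62 in HA, against 7.88, 7.70, 7.13 and 7.25 in LA, Ecrg4 9.37, 9.90, 9.41 and 9.66 in HA, against 9.12, 8.94, 8.06 and 8.50 in LA, and Folr1, a folate carrier, 7.75, 7.94, 7.70 and 7.72 in HA, against 7.18, 7.42, 6.90 and 7.16 in LA. Their differences were 1.12, adjusted p = 9.88e-05, 0.93, adjusted p = 0.00292 and 0.61, adjusted p = 0.00127. Clic6, Lbp, Igfbp2, Slc13a4, Calml4 and Rdh5 were called as well, at 0.52 to 0.87. Clic6 lost its call on leaving out any of 4 arrays (highest adjusted p = 0.0645) and Rdh5 without LA saline replicate 3 or 4 (smallest size 0.45). The list mean was 0.32 to 0.41 in HA saline and -0.29 to 0.13 in LA saline, and 0.10 to 0.21 in HA DMI and -0.62 to -0.41 in LA DMI, so the lines were apart under each label. The defining markers were detected, 34 of the 35 on at least 4 of 8 arrays. The count was 11 to 21 on leaving out 1 array, with 11 without HA saline replicate 2 or LA saline replicate 3, and 2 with the HA saline arrays averaged.

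Of 41 measured genes of thalamus and habenula 18 were higher and 0 lower, against 3.45% and 3.63% of all genes, with a median of 0.36. Tcf7l2, a Wnt pathway factor of thalamic neurons, had levels of 9.07, 9.06, 9.11 and 9.27 in HA, against 7.14, 8.67, 7.42 and 8.22 in LA, a difference of 1.27, adjusted p = 0.00417, and its second detected probe 0.56, adjusted p = 0.000649. Gbx2, a thalamic homeobox factor, had 8.08, 8.22, 8.07 and 7.94 in HA, against 6.56, 7.80, 6.74 and 7.20 in LA (1.00, adjusted p = 0.00504), and Gpr151, a receptor of the habenula, 7.60, 7.67, 7.64 and 7.59 in HA, against 6.94, 6.70, 6.51 and 6.57 in LA (0.95, adjusted p = 0.00819). Calb2, or calretinin, had 10.85, 11.11, 10.70 and 10.88 in HA, against 9.51, 10.59, 9.04 and 9.36 in LA (1.26, adjusted p = 0.00705, and 0.81, adjusted p = 0.00214 on its other probe). For each of these the HA arrays agreed closely while the LA arrays were spread, with LA saline replicate 2 near HA for Tcf7l2, Gbx2 and Calb2. Zic1, a zinc-finger factor, was higher too (1.20, adjusted p = 0.000441), as was Prkcd, a protein kinase C (0.95, adjusted p = 0.00301). Irx2, Rgs16 and Vav3 were called at 0.58, 0.59 and 0.52. Rgs16 lost its call on leaving out any of 5 arrays (highest adjusted p = 0.0818) and Vav3 on leaving out any of 3 (highest adjusted p = 0.075). The other detected Vav3 probe had the same sign and did not pass. On the DMI-labelled arrays 1 of the 41 was higher and 1 lower. The list mean was 0.32 to 0.36 in HA saline, above all other arrays, -0.32 to 0.17 in LA saline, -0.24 to 0.01 in HA DMI and -0.30 to 0.01 in LA DMI. The count was 12 to 20 on leaving out 1 array, with 12 without HA saline replicate 1, LA saline replicate 1 or LA saline replicate 3, and 0 with the HA saline arrays averaged.

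Of 26 measured genes of striatal projection neurons 11 were lower and 0 higher in HA, with a median of -0.44. Of all genes 3.63% were lower and 3.45% higher, for this and the next lists. Actn2 had levels of 7.20, 7.27, 7.31 and 7.18 in HA, against 7.96, 8.002, 7.60 and 7.77 in LA (-0.59, adjusted p = 9.01e-05), and Arpp21 10.61, 10.50, 10.58 and 10.45 in HA, against 11.44, 12.10, 10.49 and 11.51 in LA (-0.85, adjusted p = 0.0424). The call of Arpp21 was kept only on leaving out LA saline replicate 3 and was lost on leaving out any other array, with a smallest size of -0.61 (highest adjusted p = 0.112). The list mean was -0.15 to -0.13 in HA saline, and in LA saline it was 0.45, 0.80, -0.15 and 0.32 for replicates 1 to 4. Replicate 3 was at the HA level and the others above it. On the DMI-labelled arrays 0 of the 26 passed, with means of -0.27 to 0.03 in HA and -0.17 to 0.01 in LA. The count was 17 without LA saline replicate 3, 6 to 8 without any other single array, 4 without LA saline replicates 2 and 4, and 0 under median centring or with the HA saline arrays averaged. Of 21 neocortical layer genes 5 were lower and 0 higher, among them Ccn2 (-0.90, adjusted p = 0.000713) and Mef2c (-0.61, adjusted p = 0.0102), with list means of -0.17 to -0.08 in HA and 0.02 to 0.12 in LA. Under median centring 0 of them passed. Ptgds, an enzyme of leptomeninges that makes prostaglandin D2, was higher (1.05, adjusted p = 0.000247), and of its 34-gene list 3 were higher and 2 lower. The part of neighbouring tissue in the differences of other genes was not tested.

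**Figure D4:**
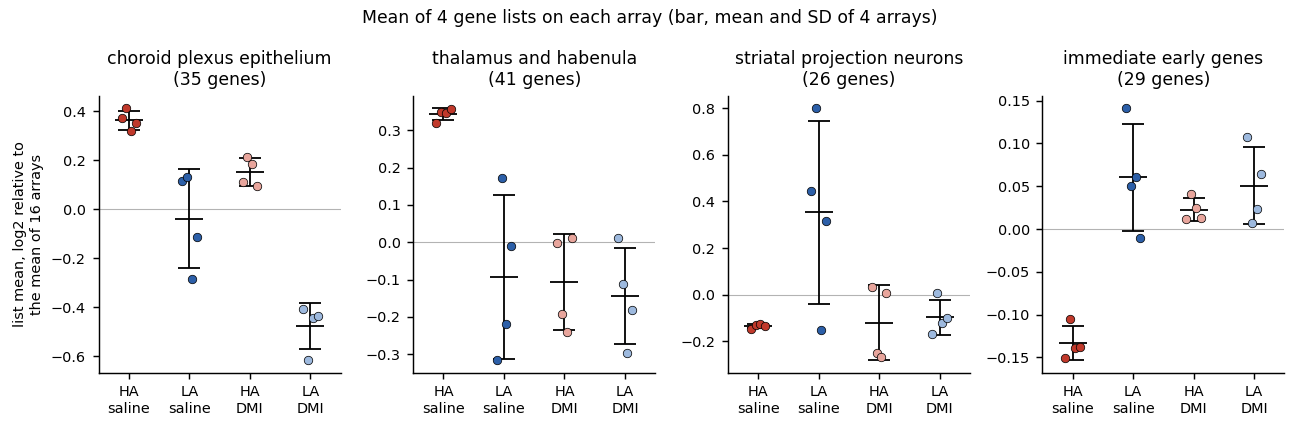
Mean of 4 gene lists on each array (points), in log2 units relative to the list's mean over 16 arrays, with the mean and SD of 4 arrays (bars). The HA saline arrays lie close together on each list, highest of all for thalamus and habenula and lowest of all for immediate early genes, while LA saline arrays spread from -0.15 to 0.80 on the striatal list.

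**Figure D5:**
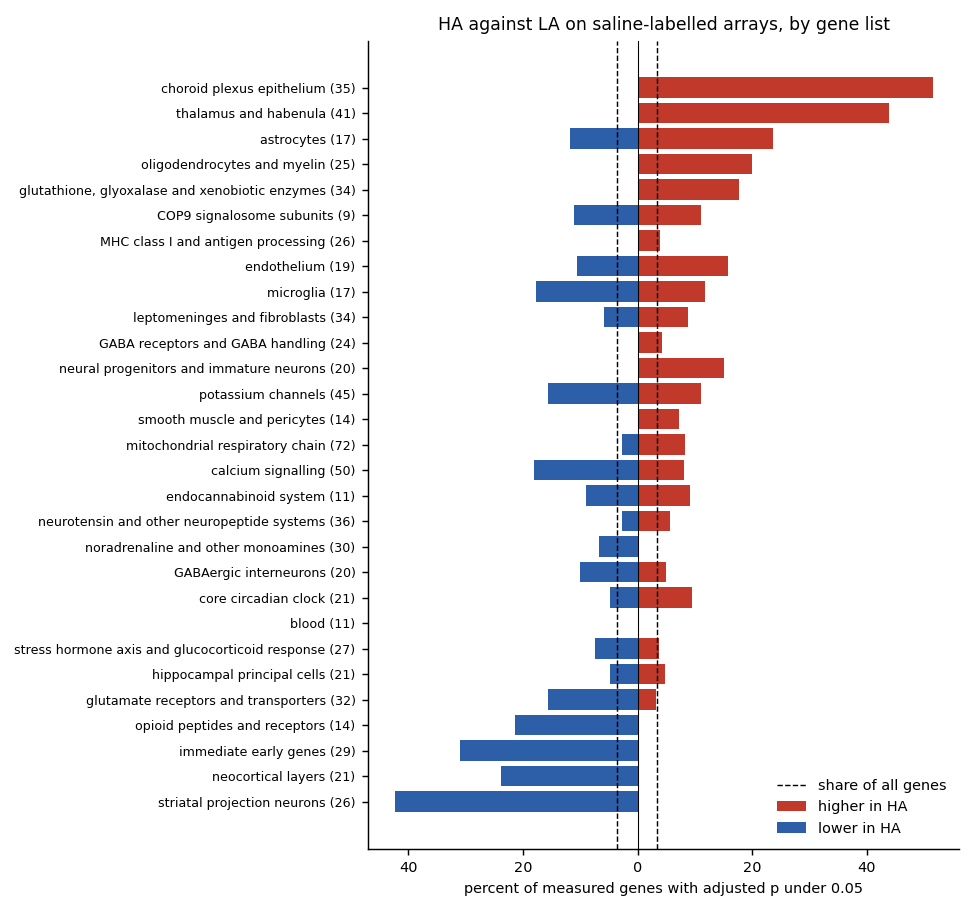
Percent of each list's measured genes that were higher in HA (right) or lower in HA (left) at an adjusted p under 0.05 on the saline-labelled arrays, with the number measured in brackets and the shares of all genes, 3.45% and 3.63%, as dashed lines. Choroid plexus epithelium and thalamus and habenula reach farthest right, and striatal projection neurons and immediate early genes farthest left.

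The difference between the line contrasts under the 2 labels was tested itself. It passed for 1 probe (0.00389%), Phactr1, which regulates protein phosphatase 1 and actin, with levels of 8.77, 8.70, 8.69 and 8.72 in HA, against 9.24, 9.53, 9.39 and 9.32 in LA on the saline-labelled arrays and 9.27, 9.36, 9.42 and 9.15 in HA, against 8.99, 9.26, 9.19 and 9.08 in LA on the DMI-labelled arrays. The line difference was -0.65 under the saline label and 0.17 under the DMI label (adjusted p of the difference = 0.00489). The HA saline arrays were low and the other 3 groups near each other. At an unadjusted p under 0.05 1792 probes differed. Under median centring and with the HA saline arrays averaged the test passed for 0 probes. The next smallest adjusted p was that of Ly6a, a surface antigen of endothelium, at 0.122. Ly6a had levels of 9.25, 9.48, 9.31 and 9.56 in HA, against 8.13, 8.58, 8.16 and 8.23 in LA on the saline-labelled arrays (1.12, adjusted p = 0.000106) and differed by -0.07 on the others. The test did not pass for any gene of the thalamic, striatal or immediate early lists, with Phactr1 the only probe past it. Without LA saline replicate 2 it passed for 28 probes, without LA saline replicate 3 for 8 and without LA saline replicates 2 and 4 for 31.

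Called genes were spread over all autosomes and the X chromosome. Of 274 called genes placed on the reference map 92 (33.6%) had another called gene within 1 Mb, against 29% of detected genes that were not called. The largest groups had 4 genes: Ttl, Pdyn, Idh3b and Ptpra on chromosome 2, all lower in HA, and Dhdh, Ntn5, Dbp and Grwd1 on chromosome 7, 3 higher and 1 lower. Chromosome 13, with the histone clusters, had the highest share of detected genes called, 20 of 315 (6.35%), 16 of them lower, and chromosome 1, which holds Cops8, had 26 of 471 (5.52%), against 2.98% over the genome.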

How the data were processed

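Hippocampal RNA of 16 arrays in 4 groups of 4 was measured, of which the 8 saline-labelled arrays are compared here. The authors deposited linear signal intensities without normalization between arrays, with a detection p-value per probe, per the file headers. The authors also deposited log2 values made from these signals and quantile normalized over the 16 arrays, for which the study's methods name beadarray and limma. The log2 values were used for all main results, and detection (p under 0.05) for filters and bounds. A linear model with 1 mean per group was fitted per probe with limma 3.58.1 in R 4.3.3 (lmFit, eBayes), with Benjamini-Hochberg adjustment over 25697 probes. The scripts were tested on simulated data. Of the probes 23982 had 1 gene symbol, 1715 had none and 0 had several, and 4 of the symbols came from the study's tables. Those tables hold the authors' own DMI effects, of which only signs and symbols were read, to check the labels. Lists used the brightest probe of a gene. The shares of all genes include undetected ones, as 52% of all probes were detected on at least 4 of the 8 saline-labelled arrays. Most lists held mainly detected genes, so their counts and these shares are not on equal terms. The rule for genes to name took the called, detected probes with the biggest differences, at most 15 in each direction, every called gene on a functional list, members of each list with the smallest p, genes the study's text names for the lines, and other probes of all these. Genes outside the rule, such as the histones, were picked once their values were known. The comparison, the lists and the rule were chosen with earlier results of these data known. Where a probe was not detected on any array of a group, a fold change is a bound, the brighter group's mean against the mean of, per array, the higher of the lowest detected signal and the probe's own. Replicate numbers of the labels were not taken to pair HA and LA arrays. Signals renormalized here, median centring, neqc background correction (offset 16), filters, weights, a trend and robust fit, a replicate block, averaged HA saline arrays and omissions of single arrays were the alternatives. For arrays, their number limits the precision. Sequences are from RefSeq (GRCm38.p6).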

Additional observations from a re-analysis of the deposited data

Results flagged for a closer look

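Of 68 groups of 4 arrays tested for a value far from the rest, 1 passed Dixon's test, and chance passes about 1 in 20 groups. It was Cops8 in HA saline, where replicate 4 was at 7.24 and the other replicates at 6.95, 6.97 and 6.97, a gap of 0.914 of the group's range. All of them were far below the LA saline arrays, at 9.66 to 9.99.

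For Phactr1 the line difference itself differed between the labels. It was -0.65 on the saline-labelled arrays and 0.17 on the DMI-labelled arrays, a difference of -0.82 (limma, adjusted p = 0.00489), and the test passed for 0 probes under median centring or with the HA saline arrays averaged. The 4 HA saline arrays were all below the 4 LA saline arrays, and HA DMI and LA DMI overlapped.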

How the results depend on the processing

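On the saline-labelled arrays the count of 314 was 820 with neqc background correction (410 higher and 410 lower in HA), 77 with the HA saline arrays averaged into 1 sample (27 higher and 50 lower) and 1627 without a limit on size (821 higher and 806 lower). Under median centring 403 were higher and 45 lower. It was 305 with signals renormalized here, 303 with the 8 arrays alone, 318 with array weights, 300 with trend and robust and 327 over detected probes. With a replicate block it was 313, and 311 of the 314 were kept. The correlation of same-numbered deviations was -0.05 to 0.11, so the numbers were not taken as pairing. Leaving out 1 array gave 256 to 366, with 123 to 173 higher and 133 to 198 lower. Of the 314 probes 196 were kept under all 8 omissions and 55 under every alternative with a value. The DMI-labelled count of 224 was 593 with neqc and 212 to 266 without 1 array. The count of probes whose line difference depended on the label was 0 under median centring, 0 with the HA arrays averaged, 3 with neqc, 2 over probes detected on at least 4 of 16 arrays, 2 with the block and 13 with trend and robust. It was 31 without LA saline replicates 2 and 4, an alternative chosen after seeing the data, and 1 to 28 without 1 array. The median of the choroid plexus list was 0.59 under median centring and 0.62 with neqc, that of the striatal list -0.75 and that of the thalamic list 0.71 with neqc. That of the immediate early genes was -0.21 with neqc, -0.21 over detected probes and -0.23 as the mean over probes of a gene. Of the 4 list medians given here and the 30 leading probes, none changed direction under these alternatives. The causes were not tested.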
